A study of Mus musculus with 2 samples.

Results

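The testis-expressed (TEX) genes of the mouse were examined in 2 RNA sequencing libraries of embryonic stem cells. A gene was taken as a member when the annotation of build GRCm38 gave its row a protein-coding symbol made of Tex and a digit, which selected 38 of the 46983 genes in the table. The rule itself uses no expression value, but it was set with earlier results of these data known. The cells were of the mouse embryonic stem cell line 46C, kept on feeders in medium with serum and the cytokine LIF, and total RNA was taken from them. For one library (knockdown), cells carried a hairpin in the pLKO.1-TRC vector that targets linc1557, a long noncoding RNA, and for the other (control) they carried a control hairpin. Cells of both groups had passed puromycin selection, and infected clones had been picked. There was 1 library per group, so the comparison has no replicate check and no test, and a difference between clones cannot be told apart from an effect of the hairpin. The level of linc1557 itself was not analysed here.

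The TEX symbol records where a transcript was first found and does not define a protein family. Several members act in male germ cells, in meiosis, in the intercellular bridges that join dividing germ cells, or in silencing of transposons. Others are transcribed in most tissues and work at the endoplasmic reticulum or in the nucleus. Many germline genes start at CpG-rich promoters that are silenced in somatic and pluripotent cells by DNA methylation or by the repressor complex PRC1.6, which binds DNA through E2F6 and through MGA with MAX.

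Counts summed to 26693282 (knockdown) and 23146210 (control). All 12 pluripotency markers examined, Pou5f1, Sox2 and Nanog among them, passed the filter on low counts in both libraries and none was called different at 2-fold. Their log2 ratios had a median of 0.25 and ran from -0.94 (Lin28a) to 0.85 (Tdgf1), so they were not all equal. Feeder fibroblast markers were also present in both libraries, with a summed level of 1668 CPM in the knockdown against 2987 CPM in the control cells. CPM is the count scaled to a common library size, here after TMM scaling, which corrects library sizes for differences in composition. Of these 22 markers 14 were lower in the knockdown library, none was higher and none was at 0 in either library. Among all 15850 genes that passed the filter 4.68% were called higher and 9.48% lower. Macrophage markers summed to 37.5 and 52.2 CPM, with 1 of 8 higher (Marco) and 4 lower. Of the 12 macrophage markers, Marco was at 0 in the control library. It passed the filter through the knockdown library alone, and Mrc1, Csf1r and Ptprc passed through the control library alone. The filter thus fixed the direction of these, though not a 2-fold call. Of the 4 markers above the filter in both libraries none was higher and 1 was lower, with a median log2 ratio of 0.11. The part of feeder or other cells in the values below was not tested.

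The start regions of 5 members are shown because the members differ in CpG density there and in expression. They come from RefSeq (build GRCm38.p6) and run 5′ to 3′ toward the gene on its own strand, with each CpG in capitals. The first 2 belong to genes that were higher in the knockdown library, the next to a gene seen in the knockdown library alone at a low count, the next to a gene expressed alike in both libraries and the last to a gene with no count.
Tex13b, chromosome X, 140813434 to 140813683, minus strand: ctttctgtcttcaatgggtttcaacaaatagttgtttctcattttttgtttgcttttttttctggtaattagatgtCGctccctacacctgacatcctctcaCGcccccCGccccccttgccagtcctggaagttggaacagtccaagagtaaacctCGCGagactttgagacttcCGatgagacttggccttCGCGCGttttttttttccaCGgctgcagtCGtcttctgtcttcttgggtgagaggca
Tex14, chromosome 11, 87404945 to 87405064, plus strand: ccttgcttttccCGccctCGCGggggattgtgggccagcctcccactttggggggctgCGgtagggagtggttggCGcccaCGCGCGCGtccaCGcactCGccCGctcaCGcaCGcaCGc
Tex12, chromosome 9, 50561326 to 50561518, minus strand: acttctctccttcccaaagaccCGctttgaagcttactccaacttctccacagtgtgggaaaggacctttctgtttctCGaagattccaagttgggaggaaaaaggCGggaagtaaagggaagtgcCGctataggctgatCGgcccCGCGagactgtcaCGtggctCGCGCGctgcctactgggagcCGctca
Tex19.1, chromosome 11, 121145893 to 121146142, plus strand: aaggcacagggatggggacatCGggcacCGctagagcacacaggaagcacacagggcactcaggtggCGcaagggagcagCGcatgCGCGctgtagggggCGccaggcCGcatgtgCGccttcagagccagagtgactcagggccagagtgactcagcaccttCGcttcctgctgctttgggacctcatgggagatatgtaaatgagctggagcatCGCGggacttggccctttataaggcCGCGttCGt
Tex37, chromosome 6, 70918923 to 70919172, minus strand: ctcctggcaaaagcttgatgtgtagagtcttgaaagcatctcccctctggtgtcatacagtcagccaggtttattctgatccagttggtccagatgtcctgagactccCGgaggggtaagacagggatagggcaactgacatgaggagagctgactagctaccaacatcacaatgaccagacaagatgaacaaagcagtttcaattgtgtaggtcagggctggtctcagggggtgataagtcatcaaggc
Tex13b and Tex19.1 have 11 and 15 CpG in the 250 bases before the start, and Tex37 has 1. For Tex14 only the 120 bases next to the start are shown, with 15 CpG, because the first exon of Rad51c lies on the opposite strand beyond them and takes in the first 10 of the bases shown. For Tex12 the 57 bases nearest the RefSeq start are left out because they lie in its own annotated first exon, and the 193 bases shown hold 12 CpG.

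Most TEX genes were silent or nearly so in these stem cells. A gene entered the comparison when it reached 1 CPM in either library, which 13 of 38 members (34.2%) did, against 13211 of 21560 protein-coding genes (61.3%). Another 13 members had counts below that level, and 12 members (31.6%) had no count in either library, against 18.01% of protein-coding genes. The members without a count were Tex13a, Tex13c1, Tex13c3, Tex24, Tex28, Tex33, Tex36, Tex37, Tex46, Tex47, Tex48 and Tex50. A count of 0 still allows a level of up to 3 counts, or 0.117 CPM (knockdown) and 0.124 CPM (control). Of the 13 members that entered, 11 reached 1 CPM in the control library and all 13 in the knockdown library. Tex13c2, at 2.30 CPM, was the nearest member above the filter and Tex26, at 0.898 CPM, the nearest below it. All 38 members together took 0.0386% of the knockdown counts (0.0378 to 0.0393, 95% Wilson interval) and 0.0320% of the control counts (0.0313 to 0.0327). These are raw shares of each library, and their intervals, like all others here, cover counting error only.

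**Figure D1:**
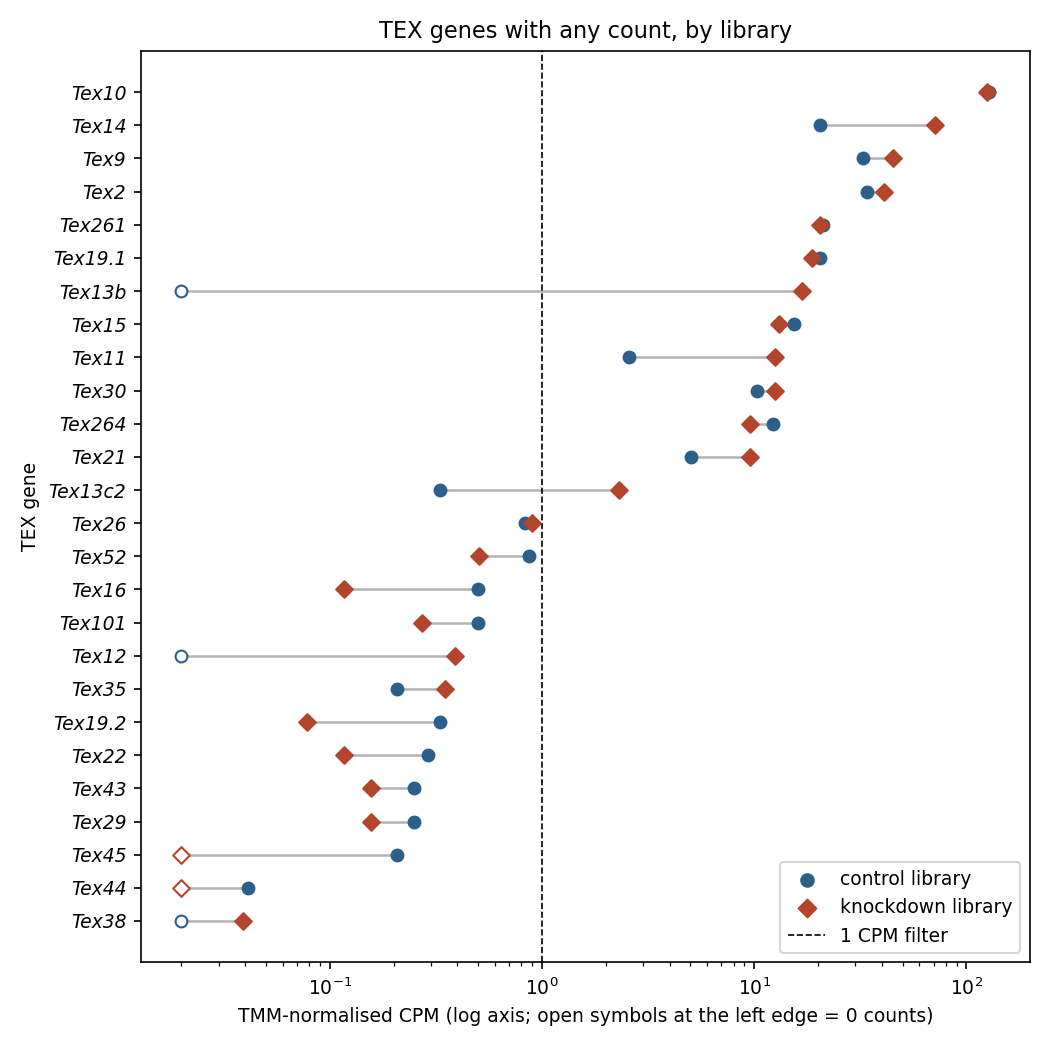
TMM-normalised CPM on a log axis for the 26 TEX genes with any count, with circles for the control and diamonds for the knockdown library and open symbols at the left edge for a count of 0. Tex10 is the most abundant member at 126 and 128 CPM, and Tex13b runs from 0 control counts to 16.8 CPM in the knockdown library.

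Of the 13 TEX genes that entered, 4 were higher in the knockdown library and none was lower. The call required a difference of 2-fold or more and an exact 95% counting interval that excluded 1. Among all 15850 genes that entered, the same rule called 4.68% higher and 9.48% lower. Among protein-coding genes alone these shares were 4.15% and 10.3%. The median log2 ratio of the entered TEX genes was 0.27, against 0.02 for all entered genes. The higher members were Tex13b, Tex13c2, Tex11 and Tex14. Tex13b and Tex13c2 passed the filter through the knockdown library alone, so the filter fixed their direction, though not a 2-fold call. Tex11 and Tex14 were above it in both libraries.

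**Figure D2:**
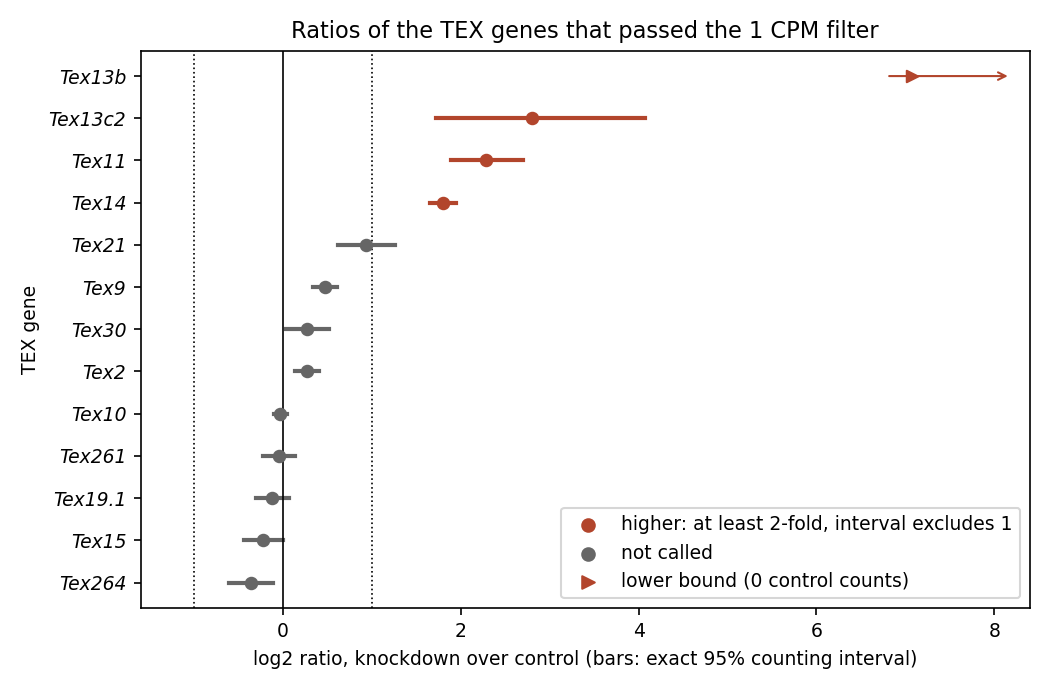
Log2 ratios, knockdown over control, of the 13 TEX genes that entered, with exact 95% counting intervals as bars, dotted lines at 2-fold and an arrow for a bound. Tex13b, Tex13c2, Tex11 and Tex14 lie beyond 2-fold and Tex21 lies just inside it at 0.94.

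Among members with a known germ cell role, the one with the most counts was Tex14, which encodes an inactive kinase-like protein of the intercellular bridge. Tex14 (ENSMUSG00000010342, chromosome 11, 87405065 to 87555823, plus strand) had 1830 knockdown counts and 494 control counts. Its level was 71.4 CPM against 20.5 CPM, a 3.49-fold difference (3.16 to 3.86). The small RNA genes annotated within its introns, such as Rnu1a1 with 1838 against 1632 counts and Rnu3b4 with 910 against 920, shared no exon bases with it and were not called.

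Rad51c, a recombination gene that starts 111 bases from the Tex14 start on the opposite strand, differed by a similar factor. With 540 knockdown and 161 control counts it was 3.16-fold higher (2.64 to 3.79), an interval that overlaps that of Tex14. On the far side of Tex14, at 10830 bases, the protein-coding gene model Gm11492 had 48 against 11 counts and was 4.11-fold higher (2.10 to 8.77). Within 500 kb of Tex14, 4 of 29 entered genes were higher and 1 was lower, with a median log2 ratio of -0.01. These 29 include the small RNA genes within Tex14, several of them in more than 1 row with near-equal counts. They are therefore not separate observations, and the median is the value of an Rnu3b1 row. Among all entered genes 4.68% were higher and 9.48% lower. The other 2 on the higher side were Ypel2, at 2.67-fold (2.23 to 3.22), and Gm11489, a pseudogene inside Tex14, at 2.88-fold (1.66 to 5.20). Gm11489 lies on the strand of Tex14 and shares no exon bases with it. Whether its reads come from Tex14 RNA was not tested. Gm11492 and Gm11489 passed the filter through the knockdown library alone. The lower gene, Mir142hg with 15 against 29 counts, passed through the control library alone. The filter thus fixed the direction of these, whereas Rad51c and Ypel2 were above it in both libraries. This 500 kb window was chosen after the values of Rad51c had been seen.

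Tex11, on chromosome X, encodes a meiotic protein related to yeast Zip4 that acts in synapsis and crossover formation. Tex11 (ENSMUSG00000009670, chromosome X, 100838648 to 101059667, minus strand) had 321 knockdown counts and 62 control counts. Its level was 12.5 CPM against 2.57 CPM, which is 4.87-fold higher (3.70 to 6.50). Its nearest protein-coding neighbours, Dlg3 with 575 against 544 counts and Slc7a3 with 1750 against 1811, were not called. Within 500 kb, 1 of 17 entered genes was higher, the cytokine receptor gene Il2rg with 51 against 21 counts, and none was lower. Il2rg entered through the knockdown library alone, so the filter fixed its direction. Of all entered genes 4.68% were higher and 9.48% lower.

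The TEX13 genes are X-linked germ cell genes, and the table held 5 of them. Tex13b (ENSMUSG00000042386, chromosome X, 140808307 to 140813433, minus strand) had 430 counts in the knockdown library and 0 in the control library. Taken against a floor of 3 counts in the control library, Tex13b had a ratio of 135. The exact interval, which has no upper end, starts at 109. Of its flanking protein-coding genes, Mid2 had 12 against 35 counts and was lower (log2 ratio -1.63). Mid2 entered through the control library alone, so the filter fixed its direction. Vsig1, on the other side at 94175 bases, had 10 against 0 counts and did not enter. Its ratio to the floor was 3.14, with an interval from 2.11.

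Tex13c2 (ENSMUSG00000105993, chromosome X, 42489691 to 42491524, plus strand), a gene with 1 exon, had 59 counts against 8. It was 6.94-fold higher (3.30 to 16.8). Within 500 kb of Tex13c2 none of 3 entered genes was called, and within 500 kb of Tex13b 1 of 5 was, Mid2. Of all entered genes 4.68% were higher and 9.48% lower. The relatives Tex13a, Tex13c1 and Tex13c3 had no count in either library. Of all 50-base stretches in the annotated transcripts, 0.291% of those of Tex13b and none of those of Tex13c2 occurred in a transcript of another gene, so few reads of these genes could be shared with copies in this annotation.

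Chromosome X carries 8 of the 38 TEX genes (21.1%), against 942 of 21560 protein-coding genes in the table (4.37%). Of the 4 members on the higher side Tex11, Tex13b and Tex13c2 are X-linked. Since Tex13b and Tex13c2 entered through the knockdown library alone, Tex11 is the 1 X-linked member that the filter left free to differ in either direction. It was higher, and of the 10 autosomal members that entered Tex14 was. Of all 562 X-linked genes that entered, 4.63% were higher and 13.9% lower, with a median log2 ratio of -0.01. The other X-linked member with counts, Tex16, had 3 knockdown and 12 control counts and stayed below the filter.

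Tex15 and Tex19.1 act in silencing of transposons in germ cells, TEX15 as a factor in piRNA-directed DNA methylation and TEX19.1 also in placenta and pluripotent cells. Tex15 had 337 knockdown and 370 control counts, a log2 ratio of -0.22 with a ratio interval of 0.737 to 0.996. Tex19.1 had 482 against 493 counts, a log2 ratio of -0.12 with a ratio interval of 0.810 to 1.05. Neither reached 2-fold, and both intervals lie within it. The neighbouring copy Tex19.2 had 2 against 8 counts and did not enter. The Tex19.1 transcripts shared 2.67% of their 50-base stretches with Tex19.2, so few reads could be shared between this pair.

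Tex12 encodes a central element protein of the synaptonemal complex, which joins homologous chromosomes in meiosis. It had 10 knockdown counts and no control count, below the filter at 0.390 CPM. Against the floor of 3 counts Tex12 had a ratio of 3.14, with an interval from 2.11. It was the one member below the filter whose interval excluded 1 on the higher side. On the lower side Tex16 had a log2 ratio of -2.09 from 3 against 12 counts, with a ratio interval of 0.0426 to 0.872. Tex101, a surface protein gene of germ cells, had 7 against 12 counts with an interval of 0.183 to 1.51. The remaining members below the filter had at most 23 counts in a library: Tex26 23 against 20, Tex52 13 against 21, Tex35 9 against 5, Tex29 4 against 6, Tex43 4 against 6, Tex22 3 against 7, Tex45 0 against 5, Tex44 0 against 1 and Tex38 1 against 0. None of these had an interval that excluded 1.

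The broadly transcribed members were close to equal in both libraries. Tex10, a nuclear protein gene needed for pluripotency whose product works with PELP1, WDR18 and SENP3, had 3216 against 3091 counts and a ratio of 0.979 (0.932 to 1.03). Tex261, a membrane protein gene of the early secretory pathway, had 525 against 509 counts and a ratio of 0.971 (0.858 to 1.10). Tex264, which encodes a receptor for autophagy of the endoplasmic reticulum, had 245 against 296 counts and a ratio of 0.779 (0.655 to 0.926). Tex2, a lipid transfer protein gene of membrane contact sites, had 1051 against 820 counts and a ratio of 1.21 (1.10 to 1.32). The last 2 intervals excluded 1 in opposite directions, but both ratios were far from 2-fold.

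Tex30, Tex9 and Tex21 leaned to the knockdown side without being called. Tex30 had 320 against 249 counts and a ratio of 1.21 (1.02 to 1.43). Tex9 had 1154 against 784 counts and a ratio of 1.39 (1.26 to 1.52). Tex21 had 246 against 121 counts and a ratio of 1.91 (1.53 to 2.40), the uncalled member nearest to 2-fold. The Tex9 value is uncertain because 32.3% of its exon bases lie in exons of Mns1 on the opposite strand, which had 598 against 424 counts, and the strand setting of the counting is not given in the sources used here. For the same reason Tex10, with 5.16% of its exon bases in exons of Invs on the opposite strand (157 against 200 counts), may carry reads of another gene. Tex30 shares 17.5% of its exon bases with the transcript Gm29247 on the same strand (154 against 129 counts), and how reads in overlapping genes were counted is not stated in the labels or the file.

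Divided by gene length, levels can be compared between members. In the control library Tex10 led with 29.3 CPM per kb, followed by Tex19.1 with 10.9 and Tex2 with 6.10 CPM per kb. From Tex2 down to Tex9, at 3.70 CPM per kb, the levels of Tex2, Tex30, Tex261, Tex264, Tex14 and Tex9 each overlapped the next within exact Poisson intervals. Below them Tex21 (2.35), Tex15 (1.59), Tex11 (0.709) and Tex13c2 (0.181 CPM per kb) were separated by more than counting error. In the knockdown library Tex10 stayed first at 28.6 CPM per kb, and Tex14, at rank 7 in the control library with 4.09 CPM per kb, stood at rank 2 with 14.2. Tex19.1 followed with 10.05 CPM per kb. Tex13b, with 5.99 CPM per kb, took rank 6 there, within counting error of Tex30 at 6.48. Among all entered genes, Tex10 lay at percentile 89.6 of length-normalised level in the control library, Tex14 moved from percentile 49.3 to 78.3 and Tex11 from 13.5 to 45.2.

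**Figure D3:**
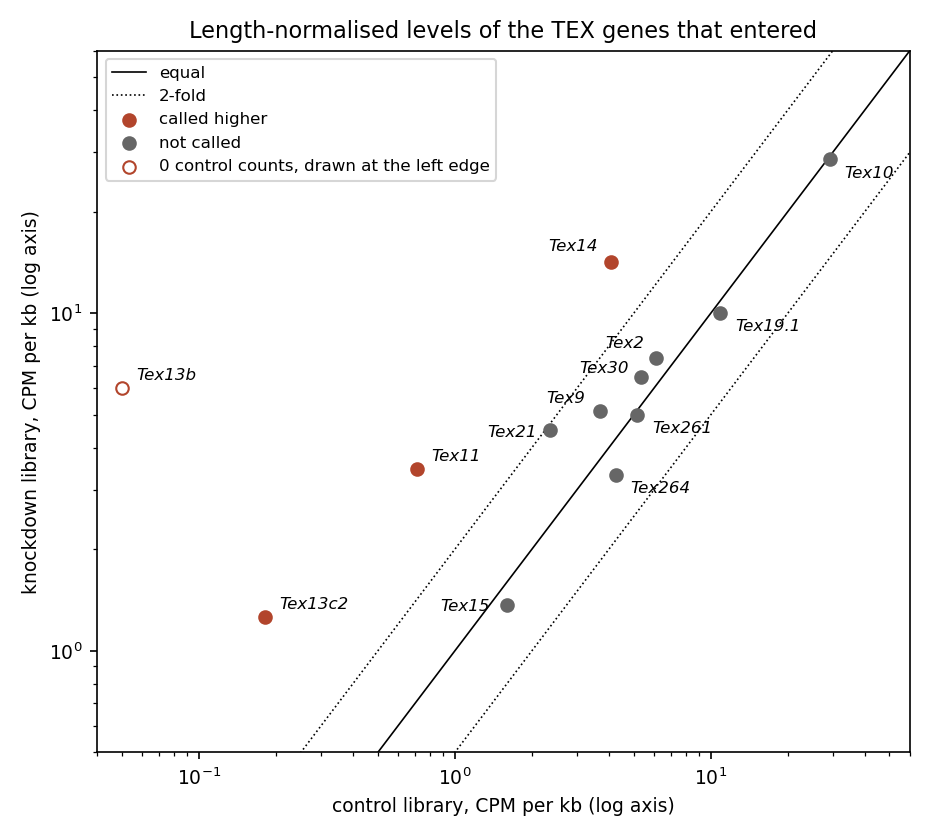
Length-normalised levels (CPM per kb, log axes) of the 13 TEX genes that entered, control library on the horizontal and knockdown library on the vertical axis, with lines for equal levels and 2-fold differences. Tex14, Tex11, Tex13c2 and Tex13b lie above the 2-fold line, and the other 9 lie within it.

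CpG density separated the members that entered from most of those that did not. The RefSeq promoter table held an entry for 31 of 38 members, without Tex11, Tex13a, Tex13c2, Tex15, Tex22, Tex24 and Tex43. The measure was the observed over expected CpG content of the 250 bases before the start, taking the most CpG-rich start where a gene had several. All 10 members that entered and had an entry were at 0.547 (Tex21) or above, up to 1.01 (Tex30), with a median of 0.752. Of the 21 that did not enter, 18 were at 0.310 or below, and the exceptions were Tex12 (0.889), Tex26 (0.734) and Tex101 (0.639). The 2 members on the higher side with an entry, Tex13b (0.778) and Tex14 (0.727), did not stand out among those that entered. A division of the same kind held for protein-coding genes at large, since 80.5% of those that entered and 17.9% of those that did not were at 0.5 or above. The value 0.5 lies in the gap between the members and was chosen after seeing it.

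**Figure D4:**
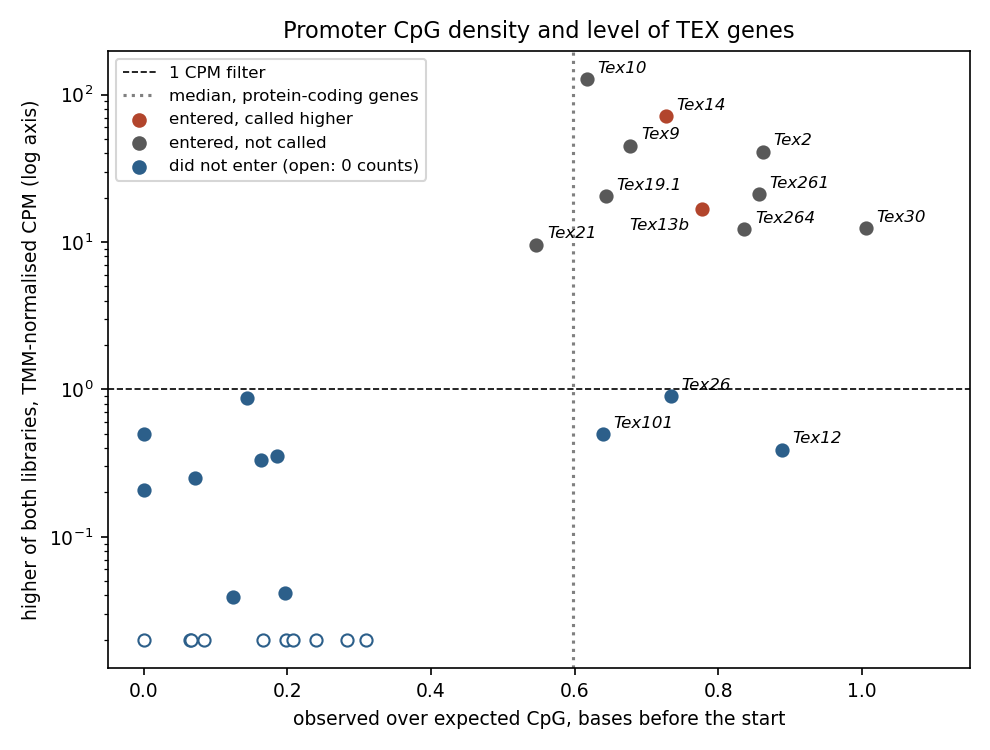
Observed over expected CpG in the bases before the start (horizontal axis) against the higher of the CPM values in the libraries (log axis) for the 31 TEX genes with a promoter entry, with a dashed line at 1 CPM and a dotted line at the median of protein-coding genes, 0.598. The members above 1 CPM lie at 0.547 or more, and the open circles without counts lie at 0.310 or less.

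Core letters of the sites that E2F6 and MGA with MAX can bind were counted in the same windows on both strands. The letters TCCCGC, or GCGGGA on the other strand, occurred in 6 of the 10 entered members and in 1 of the 21 others, Tex12, against 32.9% of entered protein-coding genes. In Tex14 they begin 111 bases before the start, at the edge of the first Rad51c exon in the sequence shown above, and in Tex19.1 33 bases before it. The palindrome CACGTG, which does not overlap the other motif in its letters, occurred in 2 of 31 members, Tex12 and Tex36, and in none of the 10 that entered, against 6.99% of all protein-coding genes. Tex12 was the member with both, GCGGGA at 145 and CACGTG at 93 bases before the RefSeq start. Neither motif was found in the Tex13b window.

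Other germline genes were read in the same way from lists of known function, which were chosen with earlier results of these data known. Of 18 germline genes known to be repressed by E2F6 or PRC1.6, 17 entered, 13 were higher and 1, Sycp3, was lower in the knockdown library, with a median log2 ratio of 1.69. Among all entered genes 4.68% were higher and 9.48% lower. Majin, Taf7l and Tuba3b entered through the knockdown library alone, so the filter fixed their direction, though not a 2-fold call. Of the 14 genes above the filter in both libraries 10 were higher and 1 was lower, with a median of 1.58. Hormad1, a gene of the meiotic chromosome axis, had 747 against 93 counts and was 7.56-fold higher (6.09 to 9.48). Majin, which attaches meiotic telomeres to the nuclear envelope, had 80 against 13 counts and was 5.79-fold higher (3.20 to 11.3). Tuba3a and Tuba3b, with 1058 against 130 and 48 against 2 counts, have near-identical sequences, so the division of their reads is uncertain. In this list 11 of 17 genes with a promoter entry held CACGTG and 8 held TCCCGC or GCGGGA, against 8.66% and 32.9% of entered protein-coding genes.

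The further germline lists share genes with this one, 5 each for recombination and the piRNA pathway and 1 for chromosome X, so they are not separate observations. The shares over all entered genes were 4.68% higher and 9.48% lower. Genes of the synaptonemal complex and recombination, the setting in which TEX11 and TEX12 act, had 5 of 15 higher, 3 of them shared with the list above, and 1 lower (Sycp3 again), with a median of 0.76. Meiob entered through the knockdown library alone. Of the 14 genes of this list above the filter in both libraries 4 were higher and 1 was lower, with a median of 0.75. Stag3, a meiotic cohesin subunit, had 5593 against 958 counts and was 5.50-fold higher (5.13 to 5.89), and Dmc1, the meiotic recombinase, had 416 against 94 counts and was 4.17-fold higher (3.32 to 5.27). Genes of the piRNA pathway, to which TEX15 is linked, had 5 of 13 higher, 3 of them shared, and 2 lower, with a median of 0.46. Gtsf1 entered through the knockdown library alone. Of the 12 genes of this list above the filter in both libraries 4 were higher and 2 were lower, with a median of 0.27. Mov10l1, a helicase of piRNA production, was 3.12-fold higher (2.48 to 3.96) with 322 against 97 counts, whereas Tdrd12 was 2.29-fold lower with 557 against 1203 counts. X-linked germline genes outside the TEX group were mixed: of 6 that entered, 2 were higher, Usp26 at 6.72-fold (5.34 to 8.55) and Taf7l at 3.22-fold (2.02 to 5.30), and 1 was lower, Xlr3c at 3.32-fold from 8 against 25 counts. Taf7l entered through the knockdown library alone and Xlr3c through the control library alone. Of the 3 above the filter in both libraries 1 was higher and none was lower. Of the genes whose products work with TEX proteins none of 19 was called, with a median of 0.09 and a range from -0.28 to 0.96. Among them were Mdn1, which works with the TEX10 complex, at 17548 against 17148 counts, and Vcp, a partner of TEX264, at 5906 against 5648. Of 16 genes of DNA methylation, of its removal (Tet1 and Tet2), of histone H3 lysine methylation and of PRC1.6, 15 were not called. The other, the de novo methyltransferase gene Dnmt3b, was 4.37-fold lower with 2732 against 11239 counts. Several of the 15 differed by less than 2-fold with intervals that excluded 1, in both directions. E2f6 had 269 against 388 counts and a ratio of 0.653 (0.556 to 0.764). Dnmt3l was at 0.527 and Dnmt3a at 0.592, whereas Dnmt1 was at 1.46 and Tet2 at 1.81.

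**Figure D5:**
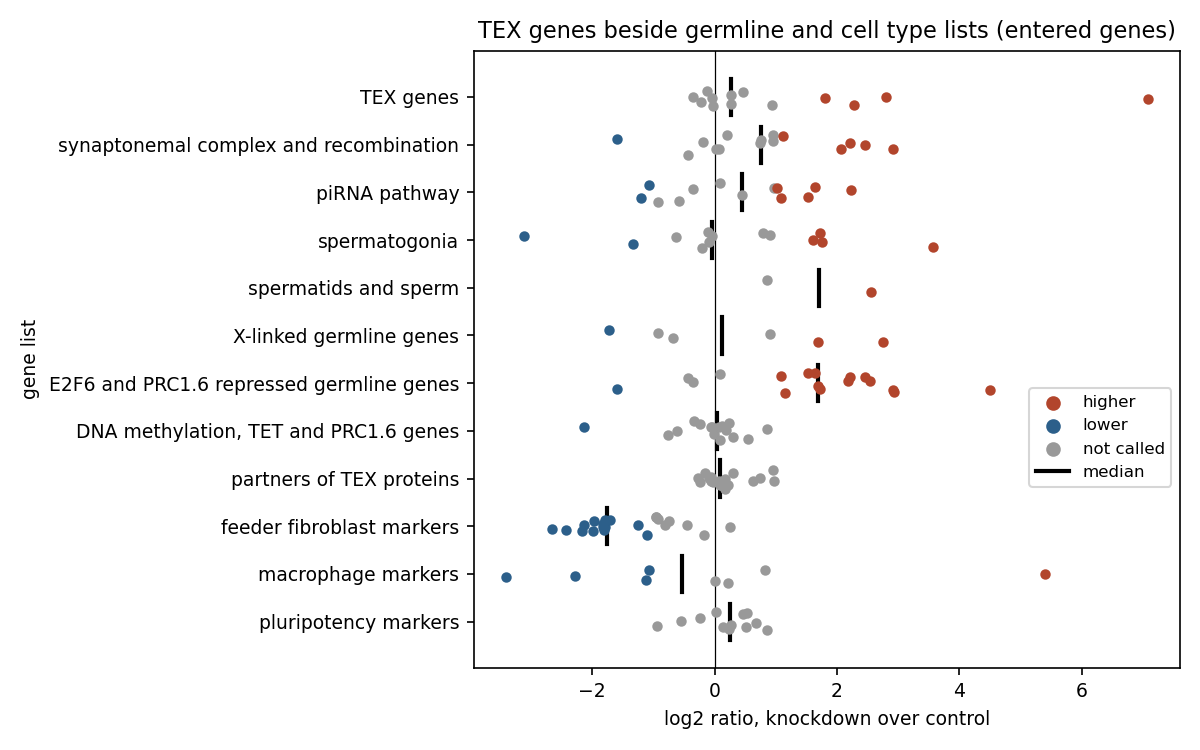
Log2 ratios, knockdown over control, of the entered genes of the TEX group and of 11 gene lists, 1 point per gene coloured by call, with a bar at each median and genes without control counts (Tex13b, Marco) drawn at their bound. The E2F6 and PRC1.6 list has its median at 1.69 and the feeder fibroblast list at -1.75, with the TEX genes at 0.27.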

How the data were processed

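RNA was sequenced from 1 knockdown and 1 control culture, per the labels. The authors deposited unnormalised counts per gene beside each gene's length, per the file headers. The submitters' processing notes name Trim Galore, HISAT2, featureCounts and DESeq and the builds mm10 and GRCm38. For their versions, the annotation release and the strand setting, nothing is stated in the labels or the file. GENCODE M21 named 46488 of 46983 identifiers. The deposited length matched its merged exons for 33 of the 38 members. TMM factors (edgeR 4.0.16, R 4.3.3) were 0.960 (knockdown) and 1.04 (control) and came from the whole table. A gene entered at 1 CPM in either library. Ratios carry exact 95% Clopper-Pearson intervals, and a count of 0 was set to 3 counts. The call needed 2-fold and an interval excluding 1. It was tried on simulated counts with counting error alone, which cannot show false calls from differences between clones or cultures. Every member was reported. From each gene list up to 4 called genes with the largest ratio, or the 2 most abundant, could be named. Some others, among them E2f6, Dnmt1, Dnmt3a, Dnmt3l and Tet2, were named outside this rule. Members and lists were chosen with earlier results of these data known. Of 187 list genes, Six6os1 and Shoc1 were not matched to a row. Python 3.11.15, scipy 1.17.1 and pandas 2.3.3 were used.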

Additional observations from a re-analysis of the deposited data

How the results depend on the processing

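No paired analysis was possible because each group had 1 library. The 4 TEX genes on the higher side were called under total-count scaling, DESeq2 1.42.0 size factors, TMM on nuclear protein-coding genes, a prior count of 2 and thinning of the deeper library, and counting every biotype added no member. Total-count scaling shifted the median of all entered genes by -0.12, and none of the 90 recomputed ratios of entered members changed a call. A filter at 5 CPM left 12 members and called 3 higher (without Tex13c2, against 2.86% of all genes), a 4-fold threshold called 3 (without Tex14, against 0.959%) and a 1.5-fold threshold called 5 (with Tex21, against 11.5%). With no filter 24 members had a ratio, 5 were higher (with Tex12, against 4.73% of all genes) and 1 was lower (Tex16, against 9.55%), and the median was -0.036, since that setting adds members with few counts. Depth limits the members below 1 CPM, and the spread between cultures or clones was not measured.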

Other observations

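Genes of later male germ cell stages were mostly silent, as were most TEX genes. Of 19 spermatid and sperm genes 2 entered, and 9 had no count in either library, among them the protamine genes Prm1 and Prm2 and the transition protein genes Tnp1 and Tnp2. The 2 that entered were Catsperz, a gene of the sperm calcium channel, with 212 against 34 counts and 5.87-fold higher in the knockdown library (4.07 to 8.70), and Catsper2, with 71 against 37 counts and not called. Genes of spermatogonia were mixed, with 4 of 13 higher, 2 lower and a median log2 ratio of -0.04. Of the 10 above the filter in both libraries 3 were higher and 1 was lower. Among all entered genes 4.68% were higher and 9.48% lower. Stra8, which responds to retinoic acid before meiosis, had 63 against 5 counts and was 11.9-fold higher (4.82 to 37.8), having entered through the knockdown library alone. Gfra1, a receptor of spermatogonial stem cells, had 15 against 122 counts and was 8.64-fold lower, having entered through the control library alone. Of 13 Sertoli and Leydig cell markers 7 entered, with 2 higher and 2 lower. Of the 3 above the filter in both libraries 1 was higher and 1 was lower.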
